A study of Mus musculus with 36 samples.

Results

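The apolipoprotein cluster Apoa1, Apoc3, Apoa4 and Apoa5 and the lactase gene Lct were described through the histone peaks that fall in 2 windows of the mouse genome, one for the cluster and one for Lct. The windows were chr9:46025001-46090000 for the cluster, 65000 bp, and chr1:130171001-130235000 for Lct, 64000 bp, both on mm9 with positions counted from 1. A peak was a member when at least 1 bp of it lay in a window. Of the 590372 peaks in the 32 lists, 123 were members, 103 in the cluster window and 20 in the Lct window. Peak values were not used to place the windows. The lists name no genes and no gene positions on mm9 were used here, so peaks are given by position and none is tied to the start site of a single gene. In the reference gene order (GRCm38.p6) the neighbours are Sik3 before Apoa1 and Zpr1 and Bud13 after Apoa5, and Ubxn4 and Mcm6 on either side of Lct, and parts of these neighbours may lie in the windows.

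Crypts, the epithelial pits of the intestine that hold stem cells and their dividing progeny, were isolated from whole mouse small intestine, and chromatin immunoprecipitation with sequencing mapped histone marks in them. Fasted pools 2 and 5 came from mice without food for 24 h but with water, and fed pools 1 and 4 from mice with free access to food. All mice were 6 to 12 weeks old, of both sexes and housed singly, and the labels name the strains Lgr5EGFP-IRES-CreERT2/+ and C57BL/6J without saying which entered which pool. The genotype is given as wildtype, each pool joined crypts of 4 animals, and the deacetylase inhibitor trichostatin A was present at 100 nM in the isolation buffers of every pool. Each pool was profiled with antibodies to 8 marks. H3K9bhb and H4K12bhb carry the β-hydroxybutyryl group of the ketone body made in fasting. H3K27ac marks active promoters and enhancers, H3K4me1 enhancers, H3K4me3 promoters, H3K79me2 transcribed gene bodies, H3K27me3 Polycomb repression and H3K9me3 heterochromatin. The labels do not separate cell types, so the share of enterocytes, the absorptive cells in which these genes are known to be active, is unknown, and no marker check could be made on lists that name no genes. In such bulk samples, a mark in fewer cells and less of the mark per cell cannot be told apart.

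Apolipoproteins are the protein part of the particles that carry lipid in blood and lymph. Apoa1 encodes the main protein of high-density lipoprotein, Apoc3 an inhibitor of lipoprotein lipase, Apoa4 a protein that enterocytes load onto chylomicrons during fat absorption, and Apoa5 a mainly hepatic protein that promotes triglyceride breakdown. Lct encodes lactase, the brush-border enzyme that splits milk sugar and is most active before weaning. In the gut epithelium the transcription factors Hnf4a, Cdx2 and Gata4 are known regulators of such genes.

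Promoter sequences are shown for the genes whose RefSeq promoters were at hand, so that the letters these factors are known to bind can be seen beside the marks. RefSeq promoters (GRCm38.p6) matched 4 of the 5 genes, Apoa1, Apoa4, Apoa5 and Lct, and Apoc3 is named only. Each sequence is the 250 bases before the start site, read 5′ to 3′ on the gene's strand: Apoa1 chr9:46228380-46228629 (+), Apoa4 chr9:46240594-46240843 (+), Apoa5 chr9:46268358-46268607 (+) and Lct chr1:128328319-128328568 (-). These positions are on another build than the peaks and were not compared with them. Capitals mark matches, on either strand, to 4 motifs. The motif of HNF4-type was CAAAGTNCA. The one of GATA-type was AGATAA, and the letters of CDX2-type were TTTATG. For the promoter box named after its letters the search used TATAAA.
Apoa1: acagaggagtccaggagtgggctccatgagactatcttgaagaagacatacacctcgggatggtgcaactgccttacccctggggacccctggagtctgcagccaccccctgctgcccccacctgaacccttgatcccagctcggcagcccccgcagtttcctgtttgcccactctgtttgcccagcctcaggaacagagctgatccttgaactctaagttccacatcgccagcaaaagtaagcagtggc
Apoa4: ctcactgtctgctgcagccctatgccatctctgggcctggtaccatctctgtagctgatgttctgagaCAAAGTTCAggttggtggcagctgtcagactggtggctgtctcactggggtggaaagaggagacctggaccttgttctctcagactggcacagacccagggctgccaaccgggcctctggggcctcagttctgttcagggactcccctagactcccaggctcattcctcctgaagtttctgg
Apoa5: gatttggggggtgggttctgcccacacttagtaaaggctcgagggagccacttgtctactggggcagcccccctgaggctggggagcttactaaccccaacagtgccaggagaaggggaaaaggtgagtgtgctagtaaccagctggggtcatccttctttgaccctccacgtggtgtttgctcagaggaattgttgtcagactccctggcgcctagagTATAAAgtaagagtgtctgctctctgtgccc
Lct: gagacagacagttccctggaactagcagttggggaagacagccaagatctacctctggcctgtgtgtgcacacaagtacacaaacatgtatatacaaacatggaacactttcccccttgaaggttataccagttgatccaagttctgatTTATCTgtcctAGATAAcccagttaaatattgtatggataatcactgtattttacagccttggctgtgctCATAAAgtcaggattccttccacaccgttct

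The Apoa4 promoter held 1 HNF4-type match at -182 to -174, counted from the start site. Among 32851 RefSeq promoters of the same length 1.19% held that motif. The Lct promoter held GATA-type matches at -101 to -96 and -90 to -85, the first on the minus strand, and a CDX2-type match on the minus strand at -31 to -26. GATA-type and CDX2-type letters occurred in 9.99% and 10.8% of all promoters. Apoa5 held TATAAA at -31 to -26, letters found in 12.4% of promoters. Another RefSeq promoter of Apoa5, chr9:46268383-46268632, is not shown, and counted from its start site the same letters lie at -56 to -51. The Apoa1 sequence held none of the 4 motifs. No searched motifs overlapped each other. A match is a stretch of letters and does not show binding.

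The 32 lists held from 59 to 46499 peaks, and the number of reads behind each is unknown. The authors' score is -10 times the log10 of the peak caller's p, with a minimum of 50, and is used here only to rank peaks within a list. Both fasted lists were longer than both fed lists for 5 of the 8 marks, and the H3K4me1, H3K4me3 and H3K79me2 lists of fed pool 1 held 309, 3430 and 571 peaks. The H3K4me3 list of fed pool 4 held 295. The file names carry the prefix 10 for fasted pool 2 and fed pool 1, and 11 for fasted pool 5 and fed pool 4, so each prefix holds 1 pool of each condition.

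The cluster window was built of a marked left part, an empty middle and a sparsely marked right part. A stretch of 18680 bp, chr9:46054975-46073654, held no peak of any of the 32 lists. Before it lay 29974 bp of window, and after it 16346 bp. In all, 37.7% of the window had no peak. In the left part H3K27ac peaks covered 99.2% and 96.5% of the bases in fasted pools 2 and 5, against 85.7% and 44.1% in fed pools 1 and 4. In the right part the same mark covered 32% and 15.6% in the fasted pools, against 5.08% and 0% in the fed pools.

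**Figure D1:**
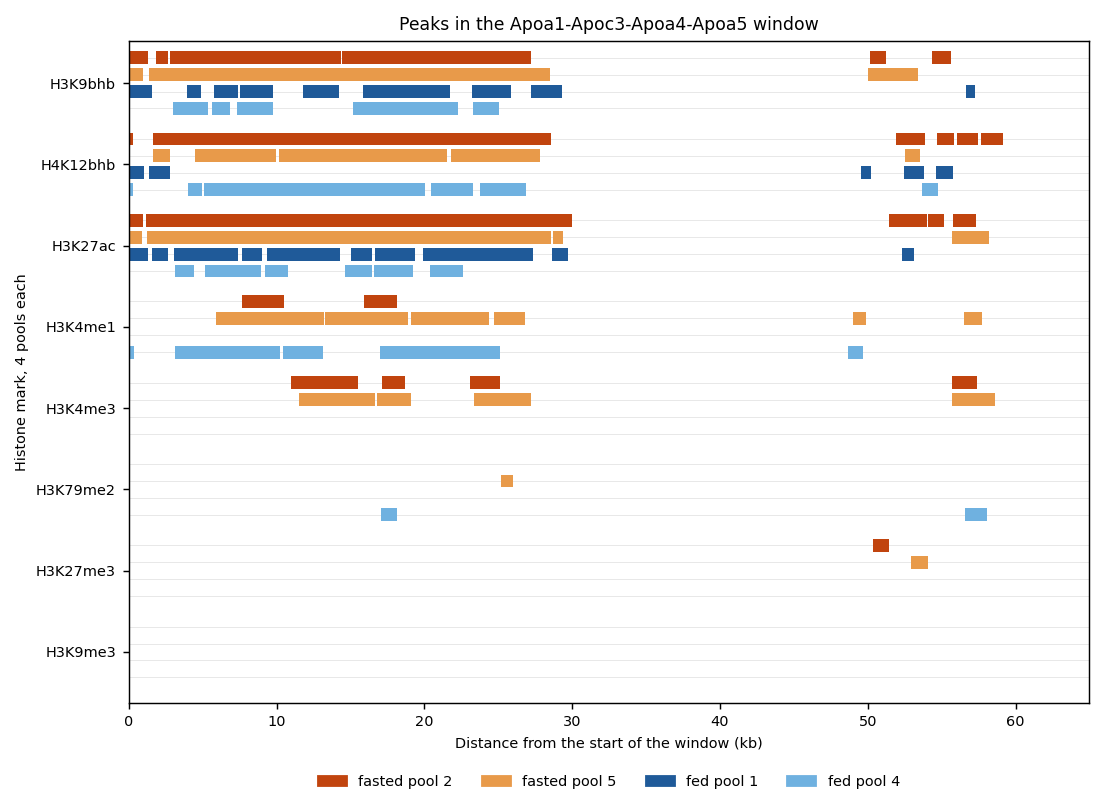
Peaks of the 8 marks along the Apoa1-Apoc3-Apoa4-Apoa5 window, in kb from its start. Each row is 1 library, with fasted pools 2 and 5 above fed pools 1 and 4 for each mark, and each bar is a peak cut at the window's edges. In the first 29974 bp the 2 β-hydroxybutyryl marks and H3K27ac cover 79.8% or more in the fasted rows, against 8.39% (H4K12bhb of fed pool 1) to 85.7% (H3K27ac of fed pool 1) in the fed rows.

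H3K9bhb covered more of the cluster in both fasted pools than in both fed pools. Its peaks covered 44.2% and 48.4% of the window in fasted pools 2 and 5, against 30.9% and 22.9% in fed pools 1 and 4. The means were 46.3 ± 2.96% in fasted and 26.9 ± 5.69% in fed crypts (SD, n = 2 each), a difference of 19.4 percentage points that was 13.3 within prefix 10 and 25.6 within prefix 11. The 2 conditions did not overlap, as in 73.2% of all genome tiles of 65000 bp with an H3K9bhb peak, so the direction is the one most marked places had. The window held 6 and 3 H3K9bhb peaks in the fasted pools and 10 and 5 in the fed pools, which overlap. The peaks were longer in fasted crypts. The longest was 12803 and 27138 bp in the fasted pools, against 3303 and 7144 bp in the fed pools, without overlap, which was so for 70.7% of the tiles.

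Among the best-scoring H3K9bhb peaks that met the window, that of fasted pool 2 spanned those of both fed pools. The one of fasted pool 5 lay elsewhere, at the left edge. In fasted pool 2 the peak chr9:46039418-46052220 scored 1363.25, rank 45 of 38934. In fed pool 4 the peak chr9:46040165-46047308 scored 461.16, rank 82 of 13923. These peaks overlap each other. In fasted pool 5 the best score, 867.3 at rank 1321 of 37640, belonged to a peak that starts before the window, chr9:46015001-46025972, with 972 of its 10972 bp inside. The 27138 bp peak that lies wholly in the window in that pool, chr9:46026344-46053481, scored 223.18, rank 9617, and the remaining one 184.44, rank 11633. In fed pool 1 it was 241.05, rank 810 of 19555, at chr9:46048233-46050865. A merged region that met the left edge, chr9:46001181-46054340, was called in all 4 libraries, as were 11.3% of merged H3K9bhb regions genome-wide. Chr9:46075041-46078399 in the right part was called in both fasted libraries and in neither fed one, as were 18.8%.

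H4K12bhb coverage was higher in both fasted pools, with 1 fed library far below the other 3. It covered 51.2% and 38.3% of the window in fasted pools 2 and 5, against 8.80% and 35.6% in fed pools 1 and 4. The means were 44.7 ± 9.12% in fasted and 22.2 ± 18.9% in fed crypts (SD, n = 2 each). The conditions did not overlap, which was so for 22.4% of tiles, but fasted pool 5 and fed pool 4 lay close. The difference was 22.5 percentage points in all, 42.4 within prefix 10 and 2.70 within prefix 11, and it became 9.14 when fed pool 1 was left out and 35.9 when fed pool 4 was. Of 6 merged H4K12bhb regions 3 were called in all 4 libraries, as were 23.3% genome-wide. Such regions join peaks that only meet, and no base was called in all 4 libraries. In the longest region, chr9:46026340-46053573, fed pool 1 had a peak of 1472 bp at the left end. Peak numbers overlapped, with 6 and 7 in the fasted pools and 5 and 7 in the fed pools.

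Fed pool 1 had no H4K12bhb peak over 46740 bp, chr9:46027812-46074551, and the longest ones of the other pools met its left side. After position 46053573 no pool had an H4K12bhb peak in it, and it includes the 18680 bp without a peak of any list. Fed pool 1 thus differed from the other pools only before that position. The longest H4K12bhb peak of the window was chr9:46026659-46053573 in fasted pool 2, 26915 bp, wider than 99.96% of that list. H4K12bhb peaks covered 100% and 88.8% of that stretch in fasted pools 2 and 5, against 4.28% and 80.9% in fed pools 1 and 4. The same stretch was covered by the other acyl marks in fed pool 1, at 63.6% by H3K9bhb and 86.3% by H3K27ac. The whole H4K12bhb list of fed pool 1 was not short, with 23073 peaks against 16560 in fed pool 4. All 32 lists were numbered without a gap, which does not show what was filtered before the numbering. The cause of the stretch without peaks was not tested. Among the 117 tiles with at least as much H4K12bhb as the window in fed pool 4, 1 had as little in fed pool 1, and it did not meet the window.

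H3K27ac was carried by fewer but longer peaks in fasted crypts than in fed crypts, with the highest number in fed pool 1. It covered 53.8% and 48.4% of the window in fasted pools 2 and 5, against 40.8% and 20.3% in fed pools 1 and 4. The means were 51.1 ± 3.81% in fasted and 30.6 ± 14.5% in fed crypts (SD, n = 2 each), without overlap, as in 80.9% of tiles. The difference of 20.6 percentage points was 13.0 within prefix 10, 28.1 within prefix 11 and 10.3 without fed pool 4. The window held 5 and 4 H3K27ac peaks in the fasted pools, against 12 and 6 in the fed pools. Fewer peaks in both fasted pools than in both fed pools were found in 2.23% of tiles with the mark, and the reverse in 42.4%. From 96.2% to 98.5% of those tiles, by pool, were covered less than the window. The share among tiles covered as much was not computed. The difference of -4.5 peaks became -1.5 when fed pool 1 was left out and -7.5 when fed pool 4 was. With gaps of up to 1000 bp merged it was -1, from means of 2 in fasted and 3 in fed crypts. The longest peak was 28803 and 27337 bp in the fasted pools, against 4989 and 3750 bp in the fed pools, an order that 81.3% of tiles had. Genome-wide, 16.1% of merged H3K27ac regions were called in all 4 libraries and 19.3% in both fasted and neither fed one. The cluster window had 1 region of each kind, chr9:46005406-46054974 in all 4 and chr9:46080681-46083226 in the fasted libraries.

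The long H3K27ac peaks of the fasted pools spanned nearly the same stretch but scored differently. In fasted pool 2 it was chr9:46026172-46054974 with a score of 98.99, above 38.1% of its list. In fasted pool 5 it was chr9:46026251-46053587 with a score of 2569.74, above 93.7%. The best H3K27ac peaks of fed pools 1 and 4 scored 361.25 and 301.26, above 96.7% and 99.1% of their lists. A score filter therefore acts on the fasted pool 2 peak first. With peaks of 100 or more the difference in covered percent was 3.56 points (27.6% in fasted and 24.0% in fed crypts), and with equal numbers of top-scoring peaks in each library it was -2.88 points (24.9% in fasted and 27.8% in fed crypts).

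H3K4me1 differed more between file-name prefixes than between conditions. It covered 7.81% and 34.4% of the cluster window in fasted pools 2 and 5, against 0% and 29.7% in fed pools 1 and 4. The conditions overlap, and the high values belong to fasted pool 5 and fed pool 4. The list of fed pool 1 held 309 peaks in all, and its part in the result was not tested. The difference of 6.25 points was 7.81 within prefix 10 and 4.69 within prefix 11, the same sign in both. With 1 pool left out it was -8.61 without fed pool 1, -7.06 without fasted pool 5, 19.6 without fasted pool 2 and 21.1 without fed pool 4. The best H3K4me1 peak of fed pool 4, chr9:46041991-46050093, ranked 257 of 39865 and lay under the acyl marks of the left part.

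H3K4me3 peaks in the cluster were found in the fasted libraries and in neither fed one. Fasted pools 2 and 5 had 4 peaks each, covering 15.1% and 21.9% of the window, and fed pools 1 and 4 had none. The 4 merged regions, chr9:46035967-46041680, chr9:46041794-46044114, chr9:46048101-46052197 and chr9:46080684-46083643, were each called in both fasted libraries. Genome-wide 47.1% of merged H3K4me3 regions had that pattern, and 76.5% of tiles with the mark had more of it in both fasted libraries. The fed H3K4me3 lists held 3430 and 295 peaks against 15079 and 18429 in the fasted lists, and their length cannot be told apart from a difference at this locus. With equal numbers of top-scoring peaks, set by the shortest list, no H3K4me3 peak was left in the window, and with scores of 100 or more 2 of the 4 regions had the pattern. H3K4me3 in fasted crypts lay almost wholly under H3K27ac, with 98.8% and 97.1% of its bases in pools 2 and 5.

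H3K79me2, the mark of transcribed gene bodies, was nearly absent from the cluster peaks. It covered 0% and 1.30% in fasted pools 2 and 5, against 0% and 4.01% in fed pools 1 and 4. The conditions overlap, and the difference of -1.36 points became 0.648 when fed pool 4 was left out and -3.36 when fed pool 1 was. The H3K79me2 lists of fasted pool 5 and fed pool 4 held 31246 and 33841 peaks. In fasted pool 2, with 14129 H3K79me2 peaks, 43.6% of 351 tiles with at least as much H3K27ac as the window and 34.3% of 539 tiles with as much H3K4me3 had no H3K79me2 either. Of the 465 tiles with at least as much H3K27ac as the window in fasted pool 5, 16.3% had no more H3K79me2, and the median H3K79me2 coverage of those 465 tiles was 17.0%. Among the 270 tiles with as much H3K4me3 in fasted pool 5, 3.33% had no more H3K79me2, 9 tiles. In fed pool 4, 26.7% of 247 tiles with as much H3K27ac had no more H3K79me2. The single peak of fasted pool 5, chr9:46050175-46051016, scored 69.67, above 17.2% of its list.

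Repressive marks were rare. H3K27me3 had 1 peak in each fasted pool, covering 1.67% and 1.86% of the window, and none in fed pools 1 and 4, and 62.6% of tiles had that order. The peaks, chr9:46075335-46076422 in fasted pool 2 and chr9:46077897-46079107 in fasted pool 5, lay in the right part and did not overlap each other. H3K9me3 had no peak in either window in any library, and its lists held from 59 to 4376 peaks.

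No difference in the cluster window could pass a test. The smallest p that an exact two-sided permutation of 2 against 2 pools allows is 0.333, and that was the value for H3K9bhb, H4K12bhb, H3K27ac, H3K4me3 and H3K27me3 coverage, 0.762 after Benjamini-Hochberg adjustment over the 16 window and mark combinations.

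**Figure D2:**
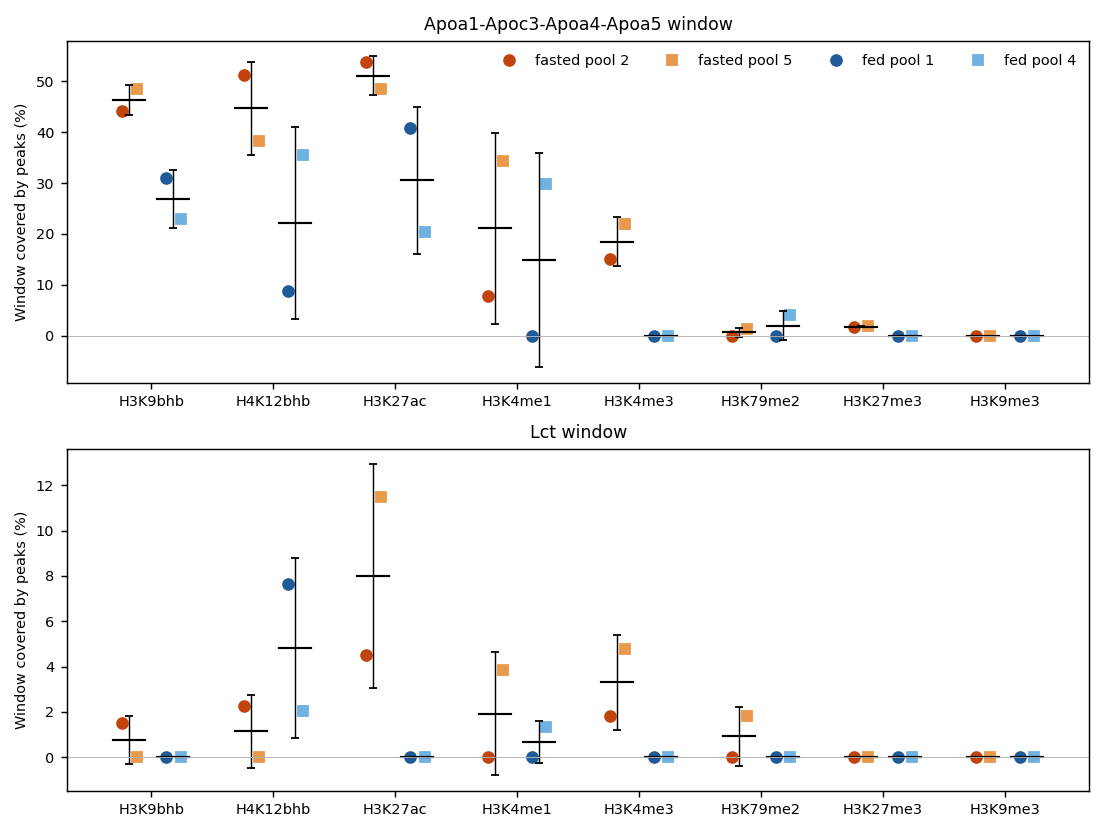
Percent of each window covered by peaks, for the 8 marks. Points are single pools, fasted pools 2 and 5 left of fed pools 1 and 4, and lines with whiskers are the mean ± SD of 2 pools. In the cluster window the fasted points lie above the fed points for H3K9bhb, H4K12bhb, H3K27ac, H3K4me3 and H3K27me3. In the Lct window the highest value is 11.5%, H3K27ac of fasted pool 5.

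In the fasted pools the acyl marks lay largely on the same bases of the cluster, while in the fed pools this varied with the mark. Of the H3K9bhb bases, 93.9% and 89% were under H3K27ac of the same pool in fasted pools 2 and 5, against 82.8% and 71.3% in fed pools 1 and 4. Of the H3K27ac bases, 77.1% and 89% were under H3K9bhb in the fasted pools, against 62.7% and 80.2% in the fed pools. Longer peaks overlap more, and that part was not tested. H3K9bhb bases under H4K12bhb came to 91.8% and 78.7% in the fasted pools, against 6.30% and 85.7% in the fed pools, so that fed pool 1 stood apart here too. H4K12bhb bases under H3K9bhb came to 79.4% and 99.5% in the fasted pools, against 22.1% and 55.1% in the fed pools. Under H3K27ac lay 93.2% and 96.1% of the H4K12bhb bases in the fasted pools, against 48.9% and 53.1% in the fed pools. In the reverse, H3K27ac bases under H4K12bhb came to 88.7% and 76.0% in the fasted pools, against 10.6% and 93.0% in the fed pools.

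Some bases were marked in every library. H3K9bhb was called in all 4 libraries over 18.4% of the cluster window in 7 stretches, the longest chr9:46040850-46044152, and H3K27ac over 19.0% in 8 stretches, the longest chr9:46041656-46044203. These 2 stretches overlap. No base was called in all 4 libraries for H4K12bhb. Both fasted and neither fed library called H3K9bhb over 11.5% of the window, H3K27ac over 7.17% and H3K4me3 over 13.8%. The reverse was 0% for each. H4K12bhb had 3.08% in this order and 0.134% in the reverse. Over the whole lists the fasted to fed ratio of mean coverage was 3.24 for H3K9bhb, 2.95 for H3K27ac and 16.1 for H3K4me3. Genome-wide shares of such bases, or of bases called in all 4 libraries, were not computed.

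For H3K9bhb, H3K27ac and H4K12bhb in the cluster window, the fasted pools resembled each other more than the fed pools did. For H3K9bhb in the cluster window, shared over joint length (the Jaccard index) was 0.821 for the fasted pair and 0.518 for the fed pair. Pairs of 1 fasted and 1 fed pool lay from 0.472 to 0.546. H3K27ac gave 0.848 for the fasted pair and 0.450 for the fed pair. Fed pool 1 was closer to the fasted pools for that mark, at 0.746 with fasted pool 2 and 0.755 with fasted pool 5, than to fed pool 4, and fed pool 4 gave 0.378 and 0.420 with them. H4K12bhb gave 0.748 for the fasted pair and 0.0185 for the fed pair, and the pair of fasted pool 5 and fed pool 4 reached 0.766. At Lct the order was the other way for that mark, with 0 for the fasted pair and 0.0771 for the fed pair. Coverage was greater in the fasted pools for these marks in the cluster, and its part in the index was not tested.

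Against the rest of the genome the cluster was among the most covered places in both conditions. Among 40610 tiles of 65000 bp, 98.3% and 98.7% were covered less by H3K9bhb in fasted pools 2 and 5, against 99.5% and 99.4% in fed pools 1 and 4. For H3K27ac the shares were 99.1% and 98.9% in the fasted pools, against 99.6% and 99.4% in the fed pools. The rank was thus slightly lower in fasted crypts for both marks although the covered length was greater. In the window the fasted to fed ratio of mean coverage was 1.72 for H3K9bhb and 1.67 for H3K27ac, while over the whole lists it was 3.24 and 2.95. For H4K12bhb the window's ratio was 2.02 and that of the lists 1.27. Leaving out fed pool 1 turned that order round, with 1.26 in the window and 1.73 for the lists, while without fed pool 4 they were 5.08 and 0.999. For H3K9bhb and H3K27ac the window's ratio was below that of the lists whichever of the 4 pools was left out. It ran from 1.5 to 2.03 against 2.82 to 3.8 for H3K9bhb, and from 1.25 to 2.51 against 2.14 to 4.75 for H3K27ac. Coverage cannot exceed the window's length, which bounds its ratio. In the left part mean coverage was 91.0% in fasted and 57.2% in fed crypts for H3K9bhb, and 97.9% and 64.9% for H3K27ac. How far this bound set the lower ratio was not tested. H4K12bhb ranked above 99.4% and 99.6% of tiles in the fasted pools, against 92.3% and 99.7% in the fed pools.

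**Figure D3:**
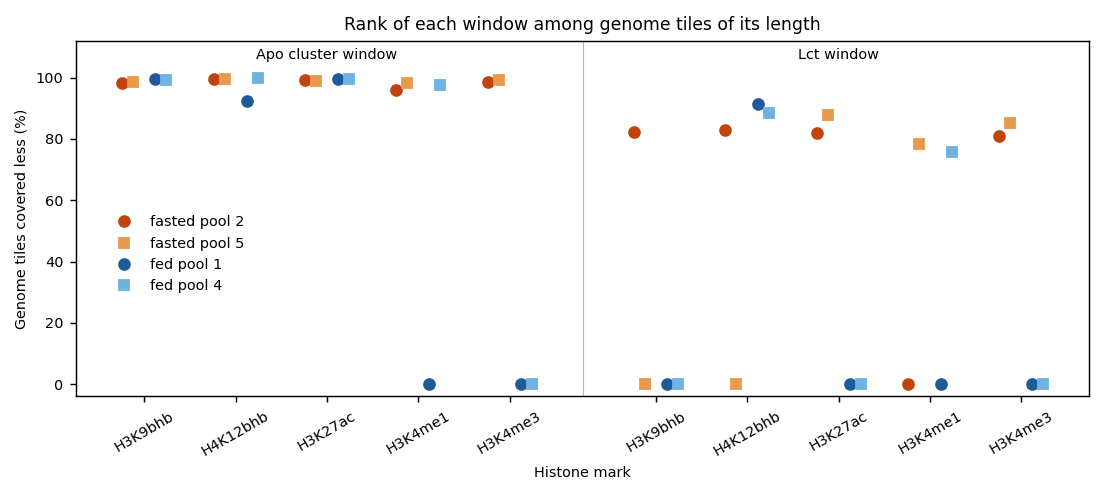
Percent of genome tiles of the window's length that were covered less than the window, for 5 marks in each window. Points are single pools, fasted pools 2 and 5 left of fed pools 1 and 4, and 0 means no peak in the window. All tiles are counted, and the median tile had 0% covered for every mark and pool. In the cluster window H3K9bhb and H3K27ac lie at 98.3% or more in all 4 pools, and in the Lct window the highest point is 91.5%, H4K12bhb of fed pool 1.

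The Lct window was sparsely marked, and its 20 peaks lay within chr1:130209536-130225741. No peak of any list was found in the first 38535 bp, chr1:130171001-130209535, or in the last 9259 bp, and 84.6% of the window had no peak. The peaks were 548 to 2674 bp long. H3K27ac covered 4.50% and 11.5% of the window in fasted pools 2 and 5, against 0% in both fed pools. The conditions did not overlap, as in 80.6% of tiles of 64000 bp. The difference of 7.99 points was 4.50 without fasted pool 5, and 2.09 with equal numbers of top-scoring peaks. In that setting the only H3K27ac peak left was chr1:130222801-130225474 of fasted pool 5, and fasted pool 2 had none, like the fed pools. H3K27ac peaks numbered 2 and 4 in the fasted pools and 0 in both fed pools, an order found in 42.1% of tiles. The regions chr1:130220349-130222244 and chr1:130222801-130225705 were called in both fasted libraries and in neither fed one, a pattern that 19.3% of merged H3K27ac regions had.

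**Figure D4:**
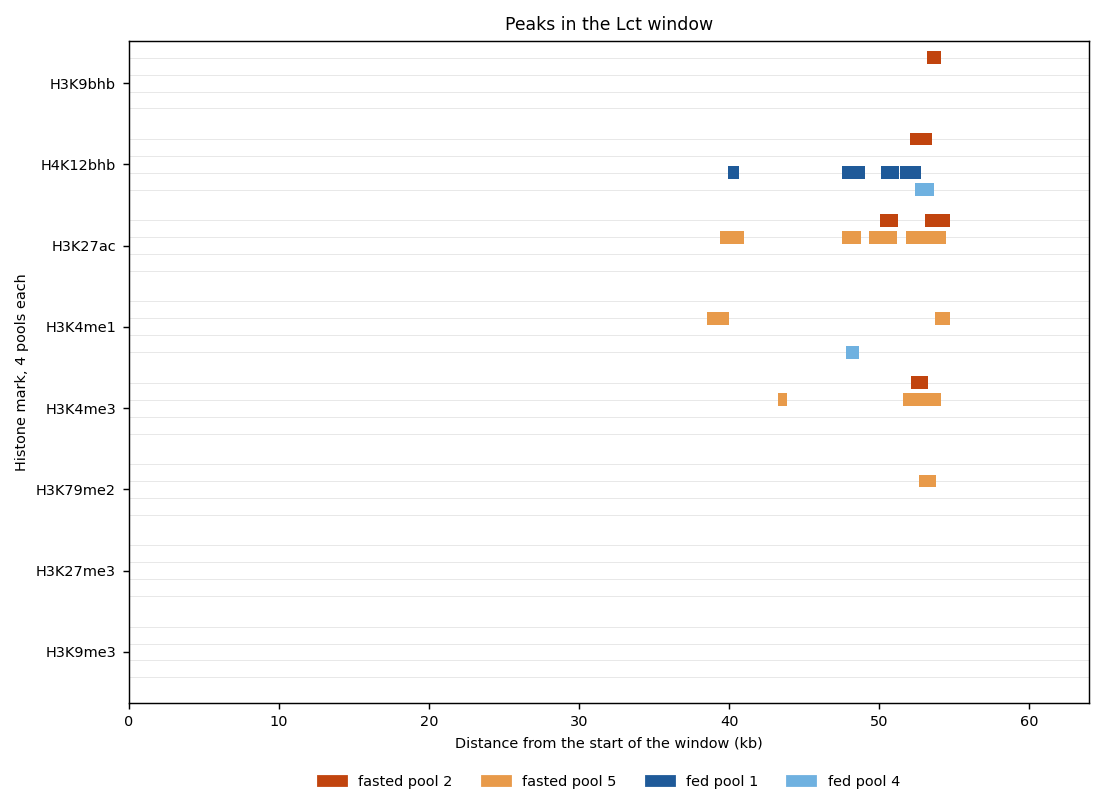
Peaks of the 8 marks along the Lct window, in kb from its start. Each row is 1 library, with fasted pools 2 and 5 above fed pools 1 and 4 for each mark, and each bar is a peak. The first 38535 bp hold no peak, and H3K27ac and H3K4me3 have bars in the fasted rows only.

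H3K4me3 at Lct lay partly under H3K27ac, with 17.4% and 76.1% of its bases in fasted pools 2 and 5. It covered 1.81% and 4.79% of the Lct window in fasted pools 2 and 5, against 0% in both fed pools, an order of 76.7% of tiles. The difference of 3.30 points was 1.81 without fasted pool 5, and 0 with equal numbers of top-scoring peaks. The region chr1:130222615-130225132 was called in both fasted libraries, and in fasted pool 5 its peak scored 335.5, above 41.2% of that list. Another H3K4me3 peak, chr1:130214285-130214832, was called in fasted pool 5 alone. H3K79me2 had 1 peak, chr1:130223629-130224803 in fasted pool 5, which lay wholly under H3K4me3 and H3K27ac.

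The β-hydroxybutyryl marks were scarce at Lct. H3K9bhb had 1 peak, chr1:130224185-130225139 in fasted pool 2, covering 1.49% of the window, and none in fasted pool 5 or in fed pools 1 and 4. That peak lay wholly under H3K27ac of the same pool. H4K12bhb had 1 and 0 peaks in fasted pools 2 and 5, against 4 and 1 in fed pools 1 and 4, and covered 2.27% and 0%, against 7.63% and 2.02%. Both measures overlap between conditions. The coverage difference of -3.69 points became -0.884 when fed pool 1 was left out and -6.5 when fed pool 4 was. In fasted pool 2, 32.1% of the H4K12bhb bases were under H3K27ac, while the fed pools had H4K12bhb peaks and no H3K27ac peak in the window. The H4K12bhb peaks of fasted pool 2 and fed pools 1 and 4 joined in 1 region, chr1:130222353-130224660, and the peak of fed pool 4 scored 50.06, just above the minimum. H3K4me1 covered 0% and 3.85% in the fasted pools, against 0% and 1.33% in the fed pools, and H3K27me3 had no peak.

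The largest difference in coverage at Lct was that of H3K27ac, 7.99 ± 4.94% in fasted and 0 ± 0% in fed crypts (SD, n = 2 each). In the Lct window the exact permutation test gave p = 0.333 for H3K27ac and H3K4me3 coverage, 0.762 after adjustment over the 16 combinations. The share of tiles covered less by H3K27ac was 82.0% and 87.9% in the fasted pools, where the median tile had 0% covered. Among tiles with an H3K27ac peak in any library that share was 39.8% and 59.5%.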

How the data were processed

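Peak lists of 32 of the 36 samples were analysed. The 4 input samples were not analysed here. Each deposited list gives chromosome, start, end, peak name and a score, the authors' -10 times log10 of p, with a minimum of 50 (p = 1e-05). Per the file names, peaks were called with MACS 1 without model building, in each library against the input of its pool. Tools in the submitters' processing notes are deepTools 1.5.11, SAMtools 1.9, Bowtie 1.1.2 and FastQC, with mm9 as the build. Neither filters nor depths were given in the sources used here. Depth, antibody yield and the input also move how many peaks a library gives and how wide they are.

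Covered percent is the length of a window under a library's peaks. Regions are a mark's peaks joined wherever they met by 1 bp or touched. Ranks used tiles of the window's length laid from position 1 of each chromosome. Exact permutation tests over pools, two-sided, compared the conditions, with Benjamini-Hochberg adjustment over 16 combinations. Replicates are separate pools. Python 3.11.15, numpy 2.4.6, pandas 2.3.3, scipy 1.17.1 and matplotlib 3.10.9 were used. Values equalled those of bedtools 2.31.1 in 64 of 64 checks. On 46 simulated tiles 15 of 15 planted ones were recovered with 0 others. That check required a margin between the conditions, which the comparisons above did not. It therefore does not show how often conditions fail to overlap by chance.

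The members, windows, lists and motifs were chosen with earlier results of these data known. The rule for names took the 5 member genes and the regions of the windows. Alternatives were gaps of up to 1000 bp merged, the same number of best-scoring peaks per list, scores from 100 up, windows changed by 10000 bp, each library left out and values within file-name prefixes. The parts beside the longest peak-free stretch, the joint counts over tiles and the ratios without each pool were chosen after seeing the data.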

Additional observations from a re-analysis of the deposited data

How the results depend on the processing

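No paired analysis was possible by replicate number because fasted pools 2 and 5 and fed pools 1 and 4 share none. The pairing used was that by file-name prefix, with 1 pool of each condition in each. None of the within-prefix differences in covered percent changed sign, 22 had the sign of the whole comparison, 4 were 0 and 6 were of marks with no peak. Over all the other settings tried, the prefixes included, 90 differences in covered percent kept their sign and lay within 1.5 times the reported value, 49 kept it and moved by over 1.5 times, 18 became 0, 6 changed sign and 37 were 0 as before. For peak numbers the counts were 88, 38, 28, 9 and 37. With equal numbers of top-scoring peaks the fasted minus fed difference in covered percent of the cluster was -2.88 points for H3K27ac and -6.23 for H3K4me1, and the H3K4me1 peak number difference was -0.5. In the part after the peak-free stretch, the peak number difference was 1 for H3K9bhb and 1.5 for H3K27ac, and in the narrowed window it was -0.5 for H4K12bhb. The causes were not tested. Coverage and peak number differences were 0 with equal numbers for H3K4me3, H3K79me2 and H3K27me3 in the cluster and for H3K9bhb, H3K4me1, H3K4me3 and H3K79me2 at Lct, where the shortest list sets the number. They were also 0 with a score of 100 or more for H3K27me3 in the cluster and H3K9bhb, H3K4me1, H3K79me2 and, for peak number, H4K12bhb at Lct, and 0 within the prefix that holds no such peak (10 for H3K79me2 in both windows and H3K4me1 at Lct, 11 for H3K9bhb at Lct). In the part before the stretch the difference was 0 for H3K27me3, and the peak number difference was 0 for H4K12bhb and H3K79me2. Other peak number differences of 0 were those of H4K12bhb with gaps merged or within prefix 11, and of H3K79me2 in the widened and narrowed windows. With a score of 100 or more, the regions called in all 4 libraries numbered 1 for H4K12bhb and 0 for H3K27ac, and those called in both fasted libraries alone numbered 2 for H3K4me3 and 0 for H3K9bhb in the cluster, and 1 for H3K27ac and 0 for H3K4me3 at Lct. With equal numbers, H3K27ac regions called in all 4 libraries and the fasted-only regions of H3K9bhb, H3K4me3 and, at Lct, H3K27ac and H3K4me3 numbered 0. With gaps merged, the fasted-only regions numbered 0 for H3K9bhb and H3K27ac in the cluster and 1 for H3K27ac at Lct. Against tiles that hold a peak of the mark, the mean percentile of the cluster in fasted and fed pools was 93.3 and 97.5 for H3K9bhb, 97.7 and 82.4 for H4K12bhb, and 96.7 and 98.3 for H3K27ac. In fasted pools it was 91.1 for H3K4me1, 96.4 for H3K4me3 and 33.4 for H3K27me3, and at Lct 49.7 for H3K27ac and 37.4 for H3K4me3, with 55.1 for H4K12bhb in fed pools.

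Leaving out 1 library at a time, the difference in covered percent of the cluster ran from 15.4 to 23.5 for H3K9bhb and from 9.14 to 35.9 for H4K12bhb. H3K27ac gave 10.3 to 30.8, H3K4me1 -8.61 to 21.1, H3K4me3 15.1 to 21.9, H3K79me2 -3.36 to 0.648 and H3K27me3 1.67 to 1.86. The H3K4me1 difference was -8.61 without fed pool 1 and -7.06 without fasted pool 5, and that of H3K79me2 was 0.648 without fed pool 4. At Lct it ran from 0 to 1.49 for H3K9bhb. H4K12bhb gave -6.5 to -0.884 and H3K27ac 4.50 to 11.5, with -0.666 to 3.18 for H3K4me1, 1.81 to 4.79 for H3K4me3 and 0 to 1.84 for H3K79me2. The peak number difference in the cluster ran from -5.5 to -0.5 for H3K9bhb and from -0.5 to 1.5 for H4K12bhb. H3K27ac gave -7.5 to -1.5, H3K4me1 -0.5 to 4.5 and H3K79me2 -1.5 to 0.5, while H3K4me3 gave 4 and H3K27me3 gave 1 each time. At Lct it ran from 0 to 1 for H3K9bhb and H3K79me2, while H4K12bhb gave -3.5 to -0.5, H3K27ac 2 to 4, H3K4me1 -0.5 to 1.5 and H3K4me3 1 to 2. Depth is unknown, so the absence of a peak shows only that none passed the authors' threshold.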
